A study of Mus musculus with 2 samples.

Results

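The genes described here are 36 genes of glycolysis and of the hypoxia response, picked by symbol from tables of 24421 genes in sequenced mouse Th1 cells, and all 36 were found. They comprise 19 enzymes of the route from glucose to lactate with their isozymes, 4 PFKFB enzymes, 3 pyruvate dehydrogenase kinases, 4 genes of oxygen sensing and 6 further targets of hypoxia-inducible factor (HIF). The cells were naïve CD4 T cells of C57BL/6J mice, activated in culture and skewed to Th1, and 1 library was made from Chi3l1+/+ cells (WT Th1) and 1 from Chi3l1-/- cells (KO Th1). Per the study's methods, the T cells were activated through CD3 and CD28 with IL-12, IL-2 and a blocking antibody to IL-4. The knockout was in the whole mouse, not in T cells only, and the study as a whole used young animals of both sexes. The sources used here do not say how many mice, or of which sex, gave each library. With n = 1 per genotype no difference has a replicate check, no test was made, and genotype cannot be told apart from mouse, culture or library.

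Glycolysis splits glucose into pyruvate in a hexose phase, which spends ATP, and a triose phase, which returns it, and lactate dehydrogenase then turns pyruvate into lactate. Activated T cells take up this route strongly even when oxygen is present, and Th1 cells are known to depend on it for full IFNγ production. HIF-1, built from the subunits encoded by Hif1a and Arnt, switches on many glycolytic genes when oxygen is low. When oxygen is present, prolyl hydroxylases of the EGLN family mark the HIF-1α protein and the VHL protein directs its breakdown, so that the mRNA of Hif1a need not follow HIF activity.

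Values are given as deposited, log2 of a scaled read count plus 1, and the difference is always the library labelled KO minus the library labelled WT. The scaled reads summed to 68448996.2 in the library labelled WT and 60913079.3 in the library labelled KO. The values of the same gene can be compared between libraries on this scale, and genes were compared with each other only as scaled reads per kb of their longest transcript. Chil1, the symbol of the targeted gene, had 1 read in the library labelled WT and 103 in the library labelled KO, which goes against the labels. Gene totals cannot show which exons the 103 reads cover, and that point does not bear on the 1 read in the library labelled WT. Whether the labels are right was not tested, and each direction below rests on the labels. The T cell genes Cd3e (14.94 and 14.86) and Lck (16.49 and 16.48) and the Th1 factor Tbx21 (13.98 and 13.72) were high in both libraries. All 6 T cell markers detected were lower in the library labelled KO, Cd4 the most (14.32 and 13.94). With scaling to Actb 4 of them were higher and 2 lower. Of the 5 Th1 markers 3 were higher and 2 lower, and Cxcr3 was low, at 8.05 and 6.82 (273 and 116 reads). Ifng, the defining cytokine, was 11.72 and 13.04. The T cell receptor constant genes are not in the tables. Markers of B cells summed to 939 scaled reads in the library labelled WT and 1731 in the library labelled KO, those of monocytes or macrophages to 687 and 579, of dendritic cells to 73.6 and 122, and of neutrophils to 81.2 and 4.79. The precursor of ribosomal RNA, Rn45s, took 2.83% and 1.0% of scaled reads.

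None of the 36 genes differed 2-fold in either direction, while over all 24421 genes 4.70% were at least 2-fold higher and 5.81% at least 2-fold lower in the library labelled KO. Of those, 41 and 66 reached 8 on the log2 scale in both libraries, so the fitting background is the 8886 well expressed genes, those at 8 or more on the log2 scale in both libraries, to which 33 of the 36 belonged (all but Hk3, Eno2 and Pfkfb1). There 0.461% were 2-fold higher and 0.743% were 2-fold lower. At 1.5-fold, 1 gene was higher, the enolase Eno3, and 1 was lower, Gapdh. The background at 1.5-fold was 3.95% higher and 6.29% lower among well expressed genes, and 9.60% and 11.4% over all genes. With 33 genes, counts of 1 and 1 are near what those shares give, so they say nothing particular about these genes. The Gapdh call was lost under 5 of the 10 alternatives. In all, 19 of the 36 genes were higher and 17 lower, with a median difference of 0.01 on the log2 scale against -0.01 over the 8886 genes. Of those 8886 genes, 48.8% were higher, which is the background for the counts of higher and lower genes below.

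**Figure D1:**
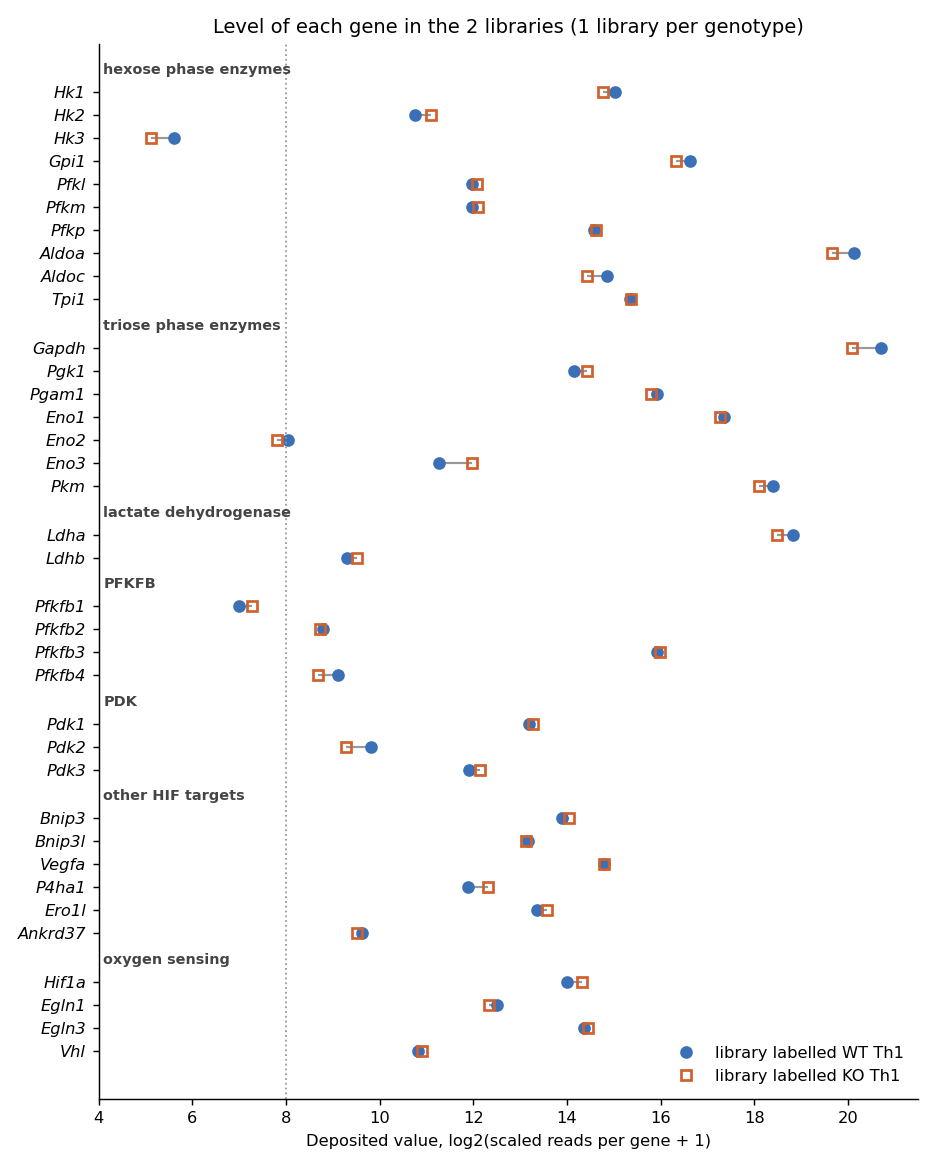
Deposited value, log2(scaled reads per gene + 1), of the 36 genes in the library labelled WT Th1 (circles) and the library labelled KO Th1 (squares), 1 library each, grouped by role, with a dotted line at 8. The values span from 5.12 to 20.70, and no gene's 2 symbols lie further apart than those of Eno3, at 0.70.

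Per kb, the same 5 enzymes led in both libraries. In the library labelled WT, Aldoa, the aldolase of muscle and many proliferating cells, had 734632 scaled reads per kb, Gapdh 517554, Ldha 255866, Pkm 141933 and Eno1 82875. The longest Gapdh transcript (3289 bases) holds a retained intron, and with its longest coding transcript of 1420 bases Gapdh came first, at 1198757. The lowest was Hk3 at 14.8. The 19 enzymes from hexokinase to lactate dehydrogenase took 6.05% of scaled reads in the library labelled WT and 4.99% in the library labelled KO. Without Rn45s the shares were 6.22% and 5.04%. Gapdh and Aldoa alone held 2.49% and 1.66% of rebuilt reads in the library labelled WT and 1.83% and 1.36% in the library labelled KO.

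The lower sum rested on the most abundant transcripts. Gapdh, which oxidises glyceraldehyde 3-phosphate (chromosome 6, 125161715 to 125166467, minus strand, GRCm38), was 20.70 in the library labelled WT and 20.09 in the library labelled KO. Its difference of -0.61 had a 95% interval of read sampling from -0.61 to -0.61 (1755787 and 1152764 reads), and 7.4% of the 500 genes nearest in mean value differed at least as much. Among the 8886 genes it stood 485th from the most lowered. Aldoa was 20.12 and 19.66, a difference of -0.46 (-0.47 to -0.46). Under quantile normalization Gapdh became 0.31 and Aldoa 0.42, since Rn45s held the first rank in the library labelled WT and the fourth in the library labelled KO, and Gapdh and Aldoa each moved up 1 rank. Under each of the other alternatives both stayed lower, though Gapdh was short of 1.5-fold, between -0.52 and -0.47, with scaling to Actb, with totals set equal without Rn45s and with the GC trend taken out. The brain-type Aldoc was 14.86 and 14.43, a difference of -0.43. Pkm, the last enzyme before pyruvate, was 18.40 and 18.11, a difference of -0.29 (-0.30 to -0.28), and gene totals cannot separate its splice forms M1 and M2. Gpi1, which interconverts glucose and fructose phosphates, was 16.62 and 16.33, with the same difference of -0.29 (-0.31 to -0.28).

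Of the other steps served by a single gene here, 2 were higher and 1 was lower. Pgk1, the first enzyme to return ATP, was 14.14 and 14.43, a difference of 0.29 (0.26 to 0.32). Tpi1, the triose isomerase, was 15.34 and 15.36, a difference of 0.03 (0.01 to 0.05). Pgam1, the mutase, was 15.91 and 15.79, a difference of -0.12 (-0.14 to -0.10), and turned positive, at 0.04 and 0.02, under quantile normalization and with totals set equal without Rn45s. By phase, with Tpi1 counted in the hexose phase, the 10 hexose-phase enzymes divided into 5 higher and 5 lower with a median of -0.12. The 7 triose-phase enzymes divided into 2 higher and 5 lower, also with a median of -0.12, but 5 were higher under quantile normalization and 4 with totals set equal without Rn45s. For the 19 enzymes as a group, 8 were higher and 11 lower, with a median of -0.12. Under quantile normalization 12 were higher and 6 lower (median 0.17), and the hexose phase alone gave 6 and 4 (median 0.17). Without Rn45s the 19 enzymes gave 10 higher and 9 lower, and with the GC and length trends taken out together 11 and 8.

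**Figure D2:**
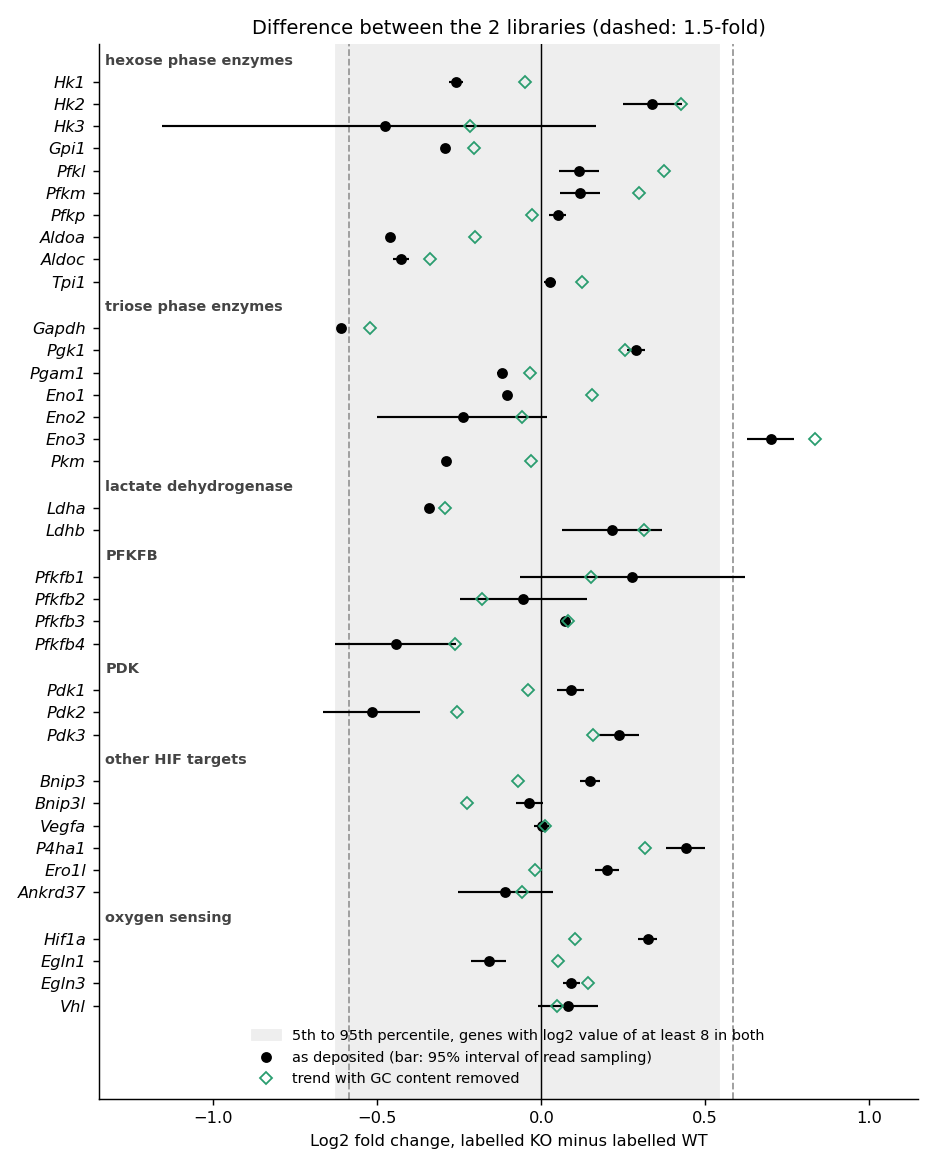
Log2 fold change of each gene, library labelled KO minus library labelled WT (black points, with the 95% interval of read sampling), and the same after the trend with transcript GC content was removed (green diamonds). Grey marks the 5th to 95th percentile of the 8886 well expressed genes (-0.63 to 0.54), dashed lines mark 1.5-fold, and Eno3 is the 1 gene among the 33 that lies outside the grey band.

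Hexokinase traps glucose in the cell as glucose 6-phosphate, and its mRNA came almost wholly from the Hk1 gene. Hk1 (chromosome 10, 62268855 to 62379908), the form of most resting tissues, was 15.03 in the library labelled WT and 14.77 in the library labelled KO. The difference was -0.26 (-0.28 to -0.24, 34460 and 28837 reads), and 42% of the 500 nearest genes differed as much. Hk2 (chromosome 6, 82725025 to 82774454), the inducible form that HIF and growth signals raise, was 10.75 and 11.09. Its difference was 0.34 (0.25 to 0.43, 1772 and 2246 reads), matched by 30.2% of the nearest genes. The isozymes thus moved in opposite directions, and neither difference was large among genes of its level. Hk1 was 0.04 with the GC and length trends taken out together.

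The choice between these isozymes is plainer as shares. All shares of a family here are of mRNA, and protein was not measured. Per kb, Hk1 made up 96.0% of hexokinase mRNA in the library labelled WT and 94.2% in the library labelled KO. Hk2 made up 3.83% (3.66 to 4.01) and 5.69% (5.46 to 5.93). The ratio of Hk1 to Hk2 per kb went from 25.1 to 16.5, and the log2 fold changes of the pair differed by -0.60 (-0.69 to -0.51). A common scaling of a library cancels in this ratio. With the GC trend taken out the gap was -0.47, and Hk1 alone was then -0.05. Read per gene without length, the Hk2 share was 4.88% and 7.22%. Hk1 overlaps the antisense gene Hk1os (7.39 and 6.65), whose reads were few beside those of Hk1.

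Hk3, the hexokinase of myeloid cells, was 5.60 and 5.12 from 49 and 35 reads, a difference of -0.48 with a sampling interval from -1.16 to 0.17. Beside it, the neutrophil markers were at 81.2 and 4.79 summed scaled reads, with 2 of 8 and 7 of 8 at 0, and the monocyte or macrophage markers at 687 and 579, with Adgre1 at 0 in both libraries. Of the 6 neutrophil markers detected, all were lower in the library labelled KO. The 7 monocyte or macrophage markers detected went both ways, 3 higher and 4 lower. Cd68 (402 and 299 reads) and Lyz2 (34 and 2) were lower, and Csf1r (97 and 174) and Mrc1 (0 and 29) were higher. The part of either cell type in the Hk3 value was not tested. In bulk RNA, fewer cells of a type and less RNA per cell cannot be told apart.

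The mRNA of phosphofructokinase, the committing step, was shared among its 3 genes. The platelet form Pfkp was 14.57 and 14.62, a difference of 0.05 (0.02 to 0.08). The muscle form Pfkm was 11.97 and 12.09, and the liver form Pfkl was 11.97 and 12.08. Pfkm shares 1156 bases with Senp1 on the opposite strand (12.38 and 12.73), and the part of Senp1 reads in its value was not tested. All 3 were slightly higher in the library labelled KO. Once the GC trend was taken out, Pfkp was -0.03, Pfkm 0.30 and Pfkl 0.37. The GC content used for Pfkp was that of its longest transcript, not of its coding transcript, so its change of sign is uncertain. Pfkp made up 53.1% and 52.0% of the family per kb, or 70.3% and 69.4% with the coding transcript, since its longest transcript also holds a retained intron. Pfkp led with every length. Pfkm came second with these lengths, but with the median transcript length Pfkl (17.2% and 17.8%) stood above it (4.2% and 4.36%).

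Enolase held the largest difference of the 36 genes. Eno3 (chromosome 11, 70657202 to 70662513, plus strand), the muscle enolase, was 11.27 in the library labelled WT and 11.96 in the library labelled KO. Its difference of 0.70 had a sampling interval from 0.63 to 0.77 (2537 and 4128 reads), and 3.2% of the 500 nearest genes differed at least as much. It stood 186th from the most raised of the 8886 genes and stayed between 0.70 and 0.84 under every alternative. No tabled gene overlaps it. The common enolase Eno1 was 17.36 and 17.25, a difference of -0.10 (-0.11 to -0.09), and was higher, not lower, under 5 of the 10 alternatives. The neuronal Eno2 was 8.04 and 7.80 from 270 and 229 reads.

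In shares per kb, Eno3 went from 1.86% (1.79 to 1.93) to 3.2% (3.11 to 3.30) of enolase mRNA, while Eno1 held 98.0% and 96.7%. The counting took in reads with several alignments, and Eno1 has a near-identical copy, Eno1b (17.51 and 17.41), so its level is uncertain. With the reads of Eno1b added to Eno1, the Eno3 share was 0.89% and 1.54%. A read that aligned to both may have been counted in each, so this sum may hold the same reads more than once. The muscle form therefore stayed a minor part of enolase mRNA in both libraries however it was counted.

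Lactate dehydrogenase was the most one-sided family. Ldha (chromosome 7, 46841475 to 46855627), which favours lactate formation and is a HIF target, was 18.83 and 18.48. Its difference was -0.34 (-0.35 to -0.34, 479006 and 378429 reads), matched by 28.4% of the nearest genes, and it was 0 under quantile normalization. Ldhb (chromosome 6, 142490249 to 142507957), the heart form, was 9.30 and 9.52, a difference of 0.22 (0.06 to 0.37, 650 and 756 reads). Ldha was 99.8% and 99.7% of the family per kb. The ratio of Ldha to Ldhb went from 529 to 359, a gap between their log2 fold changes of -0.56 (-0.71 to -0.41), and -0.61 with the GC trend taken out. Under quantile normalization the gap was narrower, with Ldha at 0 and Ldhb at 0.19.

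**Figure D3:**
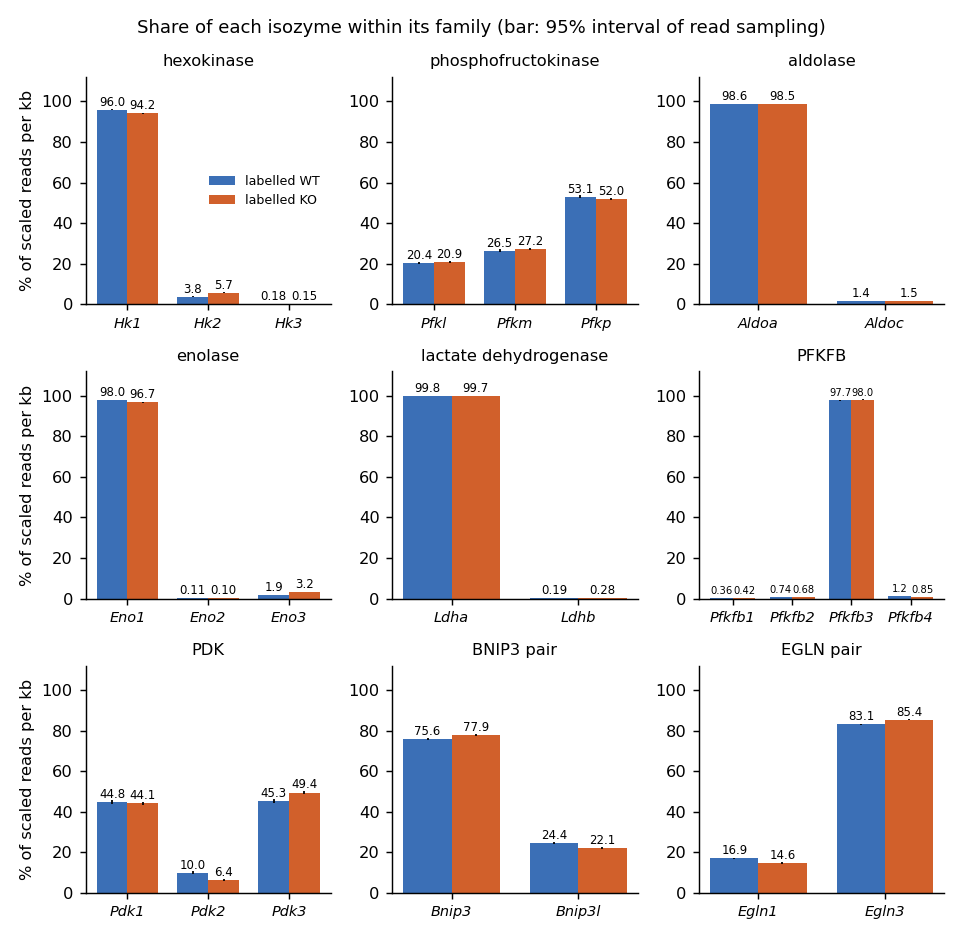
Share of each gene within its family, as percent of the family's scaled reads per kb of longest transcript, in the library labelled WT (blue) and the library labelled KO (orange), 1 library each, with 95% intervals of read sampling. The leading gene was the same in both libraries in all 9 families, with the widest relative moves in the minor forms, such as Hk2 from 3.83% to 5.69% and Eno3 from 1.86% to 3.2%.

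The PFKFB enzymes set the level of fructose 2,6-bisphosphate, the strongest activator of phosphofructokinase. Pfkfb3, the inducible form with high kinase activity, was 15.91 and 15.98, a difference of 0.07 (0.06 to 0.09), and made up 97.7% and 98.0% of the family per kb. Pfkfb4, also induced by hypoxia, was 9.12 and 8.68 from 572 and 421 reads. Its difference was -0.44 (-0.63 to -0.26), matched by 32.8% of the nearest genes. Pfkfb2, the heart form, was 8.79 and 8.73, a difference of -0.06 (-0.25 to 0.14), and Pfkfb1, the liver form, was 7.0 and 7.28, a difference of 0.28 (-0.07 to 0.62). Sampling alone spans 0 for both minor forms, so no difference was detectable at this depth. Pfkfb1 shares 1640 bases with the more abundant Apex2 on the opposite strand (9.74 and 9.78), whose part in the Pfkfb1 reads was not tested.

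The pyruvate dehydrogenase kinases hold pyruvate back from the mitochondrion by switching off pyruvate dehydrogenase. Pdk1, a known HIF target, was 13.18 and 13.27, a difference of 0.09 (0.05 to 0.13). Pdk3, also responsive to hypoxia, was 11.91 and 12.14, a difference of 0.24 (0.17 to 0.30). Pdk2, the form of most tissues, was 9.81 and 9.29 from 923 and 646 reads, a difference of -0.52 (-0.67 to -0.37), matched by 19.2% of the nearest genes. After the trend with GC content was removed, Pdk2 was -0.26 and Pdk1 was -0.04. Pdk2 went from 9.95% (9.36 to 10.6) to 6.44% (5.97 to 6.93) of the family per kb, while Pdk3 held 45.3% and 49.4% and Pdk1 44.8% and 44.1%. Which of Pdk1 and Pdk3 led depended on the length used. Per read, without length, Pdk1 led with 66.3% and 65.8%.

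Among genes of oxygen sensing, Hif1a (chromosome 12, 73901375 to 73947530) was 13.99 and 14.31. Its difference of 0.32 (0.29 to 0.35, 16770 and 21036 reads) was matched by 29.6% of the nearest genes. The transcript is AT-rich, and the difference was 0.10 once the trend with GC content was removed. Vhl was 10.81 and 10.89, a difference of 0.08 (-0.01 to 0.17). Egln1, the main oxygen sensor of most cells, was 12.49 and 12.33, a difference of -0.16 (-0.21 to -0.11), which became 0.05 with the trend removed. Egln3, itself induced by HIF, was 14.35 and 14.45, a difference of 0.09 (0.07 to 0.12), and made up 83.1% and 85.4% of the pair per kb.

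The remaining HIF targets differed little, and their split depended on the scaling. Vegfa, the angiogenic factor, was 14.80 in both libraries, a difference of 0.00 with a sampling interval from -0.02 to 0.02 (29361 and 29443 reads), and 99.8% of the nearest genes differed at least as much. Bnip3 and Bnip3l serve mitophagy. Bnip3 was 13.90 and 14.05, a difference of 0.15 (0.12 to 0.18), and Bnip3l was 13.16 and 13.12. P4ha1, a collagen prolyl hydroxylase, had the widest difference of the group, of 0.44, from 11.88 to 12.32 (3892 and 5291 reads). Ero1l, which drives disulfide formation in the endoplasmic reticulum, was 13.37 and 13.57, and Ankrd37 was 9.62 and 9.51. Of these 6 genes, 4 were higher and 2 lower, and after removal of the trend with GC content 2 were higher and 4 lower. Under quantile normalization 5 were higher and 1 lower, and with scaling to Actb, or with totals set equal without Rn45s, all 6 were higher.

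Many glycolytic genes carry, near their start, the letters ACGTG or GCGTG that make up the core of the hypoxia response element. In RefSeq windows from 250 bases before to 50 after each start (GRCm38.p6), 35 of the 36 genes had an entry, in 55 windows. Either motif, on either strand, was in a window of 31 of the 35 genes (88.6%), against 70.8% of 6776 well expressed genes and 46.7% of all 27025 genes. Genes with several windows have more chance of a match, and by window either motif was in 74.5% against 64.4% and 43.8%. By window, ACGTG was in 49.1% against 26.9% and 19.6%, and GCGTG in 52.7% against 52.8% and 32.4%. The E-box CACGTG, which contains ACGTG and which Myc and other factors can bind, was in 12.7% against 10.7% and 7.15%. The median GC content of the windows was 60.3%, against 61.3% and 52.7%. These are counts of letters, not of bound sites.

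The 250 bases before a start are shown for both genes past 1.5-fold, Gapdh and Eno3, for both lactate dehydrogenase genes and for Hk2, the inducible hexokinase. Capitals mark ACGTG and GCGTG on either strand, so that they also read CACGT and CACGC, and each stretch is written from 5′ to 3′ along the gene's strand.
Ldha, chr7:46845554-46845803, plus strand: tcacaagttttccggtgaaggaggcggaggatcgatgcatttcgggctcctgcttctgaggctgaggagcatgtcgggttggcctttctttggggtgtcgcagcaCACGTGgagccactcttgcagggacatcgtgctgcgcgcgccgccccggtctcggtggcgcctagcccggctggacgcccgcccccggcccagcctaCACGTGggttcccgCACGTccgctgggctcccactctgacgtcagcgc
Ldhb, chr6:142507958-142508207, minus strand: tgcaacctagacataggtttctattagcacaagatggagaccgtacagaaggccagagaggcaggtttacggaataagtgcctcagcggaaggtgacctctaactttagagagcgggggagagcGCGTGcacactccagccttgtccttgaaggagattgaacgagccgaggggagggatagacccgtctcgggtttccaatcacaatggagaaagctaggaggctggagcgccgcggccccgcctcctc
Gapdh, chr6:125165774-125166023, minus strand: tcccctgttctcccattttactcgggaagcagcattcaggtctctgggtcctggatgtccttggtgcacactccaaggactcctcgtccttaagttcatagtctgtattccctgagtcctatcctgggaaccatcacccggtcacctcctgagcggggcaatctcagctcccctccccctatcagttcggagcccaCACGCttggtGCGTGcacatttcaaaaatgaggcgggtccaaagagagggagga
Eno3, chr11:70656926-70657175, plus strand: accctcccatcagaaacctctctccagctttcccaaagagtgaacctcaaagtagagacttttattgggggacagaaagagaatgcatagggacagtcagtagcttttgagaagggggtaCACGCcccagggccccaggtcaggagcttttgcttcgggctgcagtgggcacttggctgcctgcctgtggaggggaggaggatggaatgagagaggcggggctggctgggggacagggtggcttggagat
Hk2, chr6:82774455-82774704, minus strand: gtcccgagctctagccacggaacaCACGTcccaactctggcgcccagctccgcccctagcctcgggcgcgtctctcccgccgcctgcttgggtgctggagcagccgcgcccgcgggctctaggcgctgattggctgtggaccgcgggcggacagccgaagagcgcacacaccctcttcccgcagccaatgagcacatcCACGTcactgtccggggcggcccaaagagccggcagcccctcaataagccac
The Ldha stretch held 5 matches to ACGTG, of which 4 came from its 2 CACGTG palindromes, and none to GCGTG. That of Hk2 held 2 to ACGTG. Gapdh held 2 to GCGTG, and Ldhb and Eno3 1 each. In GENCODE M21 none of the 5 stretches touches an exon, those of Ldha and Gapdh lie within the gene, where other transcripts start further upstream, and those of Hk2, Ldhb and Eno3 lie outside any annotated gene.

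Across the 36 genes the difference tended to fall as the GC content of the transcript rose, as it did over the well expressed genes. Spearman's rho between the difference and GC content was -0.53 over the 36 genes (Pearson's r -0.48) and -0.53 over 8845 well expressed genes (r -0.49). These correlations are descriptions across genes of the same 2 libraries. Of the 12 genes below the median GC content of 50.02%, 10 were higher and 2 lower, with a median of 0.17, and of the 24 at or above it 9 were higher and 15 lower, with a median of -0.14. After the trend was removed the medians were 0.01 and -0.03, and rho over the 36 genes was -0.04. Hk1, Pkm and Aldoa, among the GC-richest, then stood at -0.05, -0.03 and -0.20, while Gapdh stood at -0.52 and Eno3 at 0.83. Whether the trend arose in the cells or in the libraries was not tested.

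**Figure D4:**
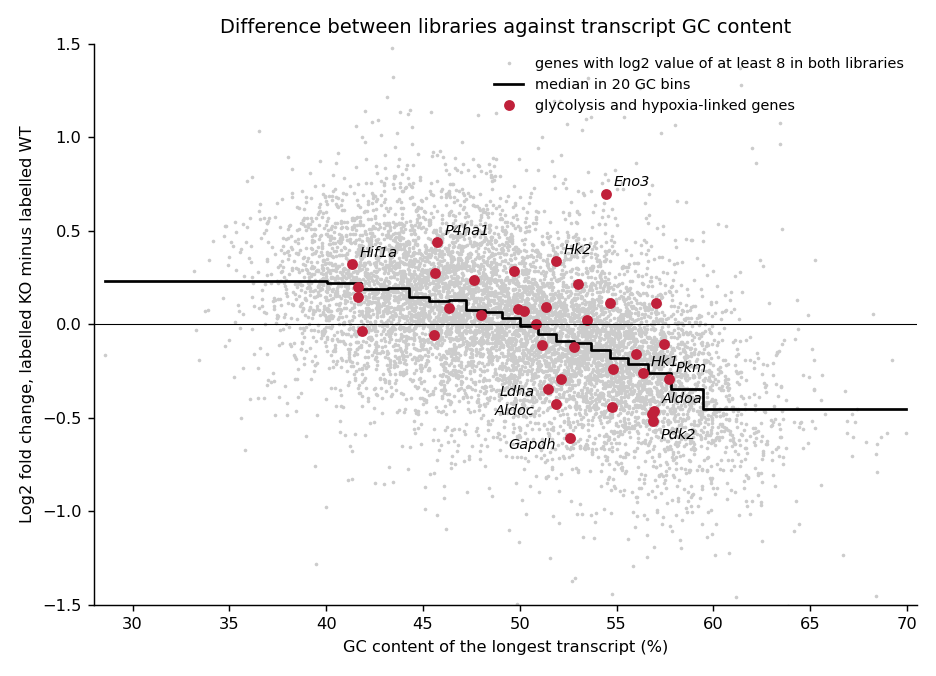
Log2 fold change, library labelled KO minus library labelled WT, against the GC content of the longest transcript, for the 36 genes (red) over the well expressed genes (grey, with the median in 20 bins as a black line), and values beyond 1.5 in size are not drawn. The bin median goes from 0.23 at the lowest to -0.45 at the highest GC content. The 36 genes scatter around it, with Eno3 furthest above (by 0.83) and Gapdh furthest below (-0.52). Others also lie well off it, such as Hk2 (0.43) and Aldoc (-0.34).

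Neighbouring pathways were read from lists of other genes. Pyruvate carboxylase, Pcx, which feeds pyruvate into the citric acid cycle and gluconeogenesis, was the 1 gene among them that was well expressed and differed 2-fold. It was 11.81 and 10.73, a difference of -1.08, which 0.4% of the nearest genes reached, and it stayed between -1.08 and -0.78 under all alternatives. The other gluconeogenic genes detected were also lower, Pck2 (10.77 and 10.63) with a difference of -0.14 and G6pc3 (10.62 and 10.24) with -0.38. With the GC trend taken out these were -0.09 and -0.03. Fbp1, Fbp2, Pck1 and G6pc were at 0 in both libraries. In the pyruvate dehydrogenase complex, with its phosphatases and the pyruvate carriers, 9 of 10 genes were higher and none passed 1.5-fold, with a median of 0.19. Under quantile normalization 8 were higher, and with the GC trend taken out 7, with a median of 0.11. That list had a median GC content of 46.1%, and well expressed genes in the GC bin from 45.33% to 46.33% had a median of 0.12.

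In the pentose phosphate pathway, which branches off at glucose 6-phosphate, 3 of 8 genes were higher and 5 lower, which turned to 5 higher and 3 lower under quantile normalization, with scaling to Actb and with totals set equal without Rn45s. Pgls, the lactonase, was 13.72 and 12.88, a difference of -0.85, matched by 2.2% of the nearest genes, and came to -0.57, short of 1.5-fold, under the alternative that lowered it most. Of 17 detected isozymes and side enzymes 8 were higher and 9 lower (10 and 7 with scaling to Actb), and Gapdhs (9.69 and 8.96, a difference of -0.73) and Galk1 (13.27 and 12.63, a difference of -0.64) were lower past 1.5-fold. Both calls were lost with the GC trend taken out, at -0.55 and -0.19. Of 9 detected genes of the HIF machinery 4 were higher and 5 lower (5 and 4 with scaling to Actb). Hif3a, a HIF subunit that can restrain the others, was 11.44 and 10.62, a difference of -0.82, and Arnt was 12.45 and 12.48. Of 26 other HIF targets 8 were higher and 17 lower, and Plod1 (9.23 and 8.53, a difference of -0.70) and Mif (17.19 and 16.58, a difference of -0.61) were lower past 1.5-fold. Neither call held under every alternative, since Plod1 came to -0.56 and Mif, with the GC trend taken out, to -0.15. The split of these HIF targets turned with the scaling, to 15 higher and 11 lower with totals set equal without Rn45s. The glucose transporters among them, Slc2a1 (14.83 and 14.65) and Slc2a3 (14.29 and 13.82), and the lactate exporter Slc16a3 (15.09 and 14.78), did not reach 1.5-fold.

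**Figure D5:**
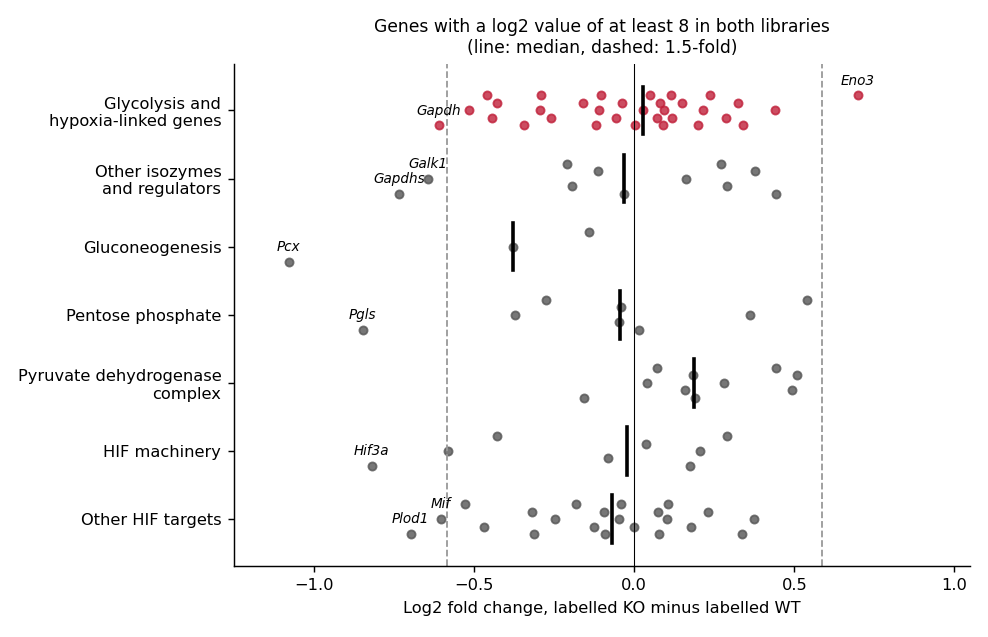
Log2 fold change, library labelled KO minus library labelled WT, of the well expressed genes of each list, with the 33 of the 36 glycolysis and hypoxia-linked genes on top, the median of each list as a bar and 1.5-fold as dashed lines. Named genes passed 1.5-fold as deposited, and each one except Eno3 was lower in the library labelled KO. Among all 8886 well expressed genes, 3.95% were 1.5-fold higher and 6.29% lower, and several of the named calls were lost under an alternative.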

How the data were processed

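Poly(A) RNA of 1 WT Th1 and 1 KO Th1 culture was sequenced with the SENSE mRNA-Seq kit, which keeps strand. The submitters' processing notes name TopHat, edgeR and mm10; the counter and annotation are not given in the sources used here. The authors counted unique and multiple alignments and applied a global normalization. The level of any gene with close copies elsewhere in the genome, not only of Eno1, is therefore uncertain. The deposited values were read as log2 of a scaled read count plus 1, because low values undo to whole multiples of 1 read, worth 0.9695 (WT Th1) and 0.9675 (KO Th1); below 60 scaled reads, 100% and 99.951% of the values above 0 lay within 0.1 of a whole read. Rebuilt reads summed to 70602025 and 62958938, and 3 reads gave a log2 value of 1.97 and 1.96. No count test was possible with n = 1.

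Fold changes carry an exact binomial (Clopper-Pearson) 95% interval and gaps between isozymes a normal (Woolf) interval of the rebuilt reads. Both cover read sampling only, take reads as independent, and hold no variation between mice or cultures. Each difference was set beside the 500 genes nearest in mean log2 value. Transcript length and GC content came from GENCODE M21 (GRCm38), and the GC trend was the median in 20 bins. GC content was that of the longest transcript. For Gapdh and Pfkp that transcript holds a retained intron, so their values with the GC trend taken out are less certain. Where genes overlap, as 10 of the 36 do on the opposite strand, the use of strand in counting is not stated. The neighbours Senp1, Apex2 and Ufsp2 stood above Pfkm, Pfkfb1 and Ankrd37 in both libraries.

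The genes and lists were chosen with earlier results of these data known. Full values are given for genes past 1.5-fold, the leading gene of each step, the hexokinase, lactate dehydrogenase, PFKFB and PDK families, and Hif1a, Vhl, Egln1, Egln3 and Vegfa, and levels for the rest; genes of other lists are named where they passed 1.5-fold and were at 8 or more on the log2 scale in both libraries, and others beside them were chosen after their values were seen. The scripts were tested on simulated data. Naïve cells are not analysed here. Analyses ran in Python 3.11.15 (pandas 2.3.3, numpy 2.4.6, scipy 1.17.1), and figures were drawn with matplotlib 3.10.9.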

Additional observations from a re-analysis of the deposited data

How the results depend on the processing

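With n = 1 per genotype no replicate could be left out, and no paired analysis was possible because each genotype has 1 library. Under all 10 alternatives applied to the fold changes, none of the 36 genes passed 2-fold and Eno3 was the 1 gene at least 1.5-fold higher. None passed 3-fold. The 1 gene at least 1.5-fold lower, Gapdh, became 0 genes under quantile normalization, with scaling to Actb, with totals set equal without Rn45s, with the GC trend removed, and with the GC and length trends removed together. Gapdh turned to 0.31 under quantile normalization, where its rank went from 2 to 1. The median of the 36 genes, 0.01, moved to 0.17 under quantile normalization, 0.13 with scaling to Actb and 0.15 without Rn45s. The last 2 scalings moved the median of the 8886 genes to 0.10 and 0.13, and the 36 genes stayed 0.02 above it. The split of 19 higher and 17 lower became 24 and 11 under quantile normalization, 23 and 13 with Actb, 24 and 12 without Rn45s, 17 and 19 with the GC trend removed, and 20 and 16 with length as well. Of the 36 genes, 20 kept their sign under every alternative and 16 did not. The leading gene of a family was the same in 9 of 9 families with near-identical copies added or, an alternative chosen after seeing the data, with the longest coding transcript, and in 8 of 9 with the median transcript length or no division by length. Genes under 3 reads could not be compared at this depth, and Hk3, Eno2, Pfkfb1, Pfkfb2, Bnip3l, Vegfa, Ankrd37 and Vhl had sampling intervals that include 0.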
